A study of Rattus norvegicus with 6 samples.

Results

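The kinesins are the motor proteins that walk along microtubules, and their genes were followed here in the pulmonary veins (PVs) of banded and sham-operated neonatal rats. All genes whose symbol is Kif followed by a digit, together with Kifc1, Kifc2 and Kifc3, were taken if their mean FPKM (fragments scaled by gene length and by library total) over the 6 libraries was above 0. This gave 39 of the 17833 genes listed. Of these, 38 carry a microtubule motor term among the gene ontology (GO) terms listed with the values, and Kif4b carries no GO term. By role, 13 were mitotic or cytokinetic kinesins, 15 were transport kinesins, 6 were ciliary kinesins and 5 were others.

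Bulk RNA-seq was performed on wild-type Sprague-Dawley (SD) rats, with 3 rats after bilateral pulmonary vein banding (BPVB) and 3 rats after sham surgery. Surgery was performed at postnatal day 1 in both groups, and PV tissue from the right upper lobe was taken at postnatal day 21. Sham-operated pups also underwent thoracotomy and exposure of the veins, and the suture was placed and removed without banding, so that both groups share the operation and differ in the band. By the study's methods each library is 1 rat, and by the labels both groups are wild-type and were treated by surgery alone.

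Kinesins hydrolyse ATP to move along microtubules, most of them toward the plus end. Mitotic kinesins slide and depolymerise spindle microtubules, align the chromosomes and build the midzone at which the cell divides, and their transcripts are known to accumulate in the G2 and M phases of the cell cycle. Transport kinesins carry vesicles, mitochondria and mRNAs in cells that need not divide, and several of them are best known from axons. The opposite direction is served by cytoplasmic dynein. The PV wall contains endothelium, smooth muscle and, near the heart, a sleeve of atrial-type cardiac muscle, together with nerves.

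Recovered library totals ranged from 23439506 to 29725808 fragments, and were higher in all 3 BPVB libraries than in the sham libraries. The defining genes of vascular smooth muscle (summed FPKM of 6 markers 3835 to 3881 in BPVB and 4168 to 4248 in sham), atrial myocardium (12145 to 12519 and 16508 to 16807) and endothelium (895 to 910.0 and 990.4 to 999) were present in every library. In bulk tissue, fewer cells of a type and less RNA per cell cannot be told apart.

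The promoters of the cell-cycle kinesins are shown first, because genes expressed in G2 and M commonly carry a cell cycle homology region (CHR, TTTGAA) and upstream CCAAT boxes, which are bound by the DREAM or B-MYB complexes and by NF-Y, respectively. The sequences below are from RefSeq on the GRCr8 rat assembly, 5′ to 3′ in the direction of transcription, and run from 120 bases before the gene start through the first 20 transcribed bases. Capitals mark the letters TTTGAA or CCAAT on either strand (TTCAAA and ATTGG on the opposite strand). The first 6 are mitotic kinesins and the last is the most highly expressed transport kinesin. They lie at chrX:69761763-69761902 (plus strand, Kif4a), chr1:191080859-191080998 (minus strand, Kif22), chr20:5000809-5000948 (plus strand, Kifc1), chr1:241840896-241841035 (plus strand, Kif20b), chr1:244536747-244536886 (plus strand, Kif11), chr8:131479284-131479423 (plus strand, Kif15) and chr10:55912973-55913112 (plus strand, Kif1c).
Kif4a: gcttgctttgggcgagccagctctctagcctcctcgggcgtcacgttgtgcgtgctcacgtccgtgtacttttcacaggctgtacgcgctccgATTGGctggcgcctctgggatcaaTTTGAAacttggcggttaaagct
Kif22: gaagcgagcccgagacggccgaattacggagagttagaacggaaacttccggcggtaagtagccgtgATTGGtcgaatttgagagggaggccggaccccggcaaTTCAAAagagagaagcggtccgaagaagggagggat
Kifc1: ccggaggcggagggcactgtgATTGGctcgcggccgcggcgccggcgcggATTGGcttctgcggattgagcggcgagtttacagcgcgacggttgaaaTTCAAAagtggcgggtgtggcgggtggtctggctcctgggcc
Kif20b: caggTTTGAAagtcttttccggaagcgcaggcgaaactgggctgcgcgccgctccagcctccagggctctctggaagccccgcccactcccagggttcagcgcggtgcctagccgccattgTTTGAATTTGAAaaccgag
Kif11: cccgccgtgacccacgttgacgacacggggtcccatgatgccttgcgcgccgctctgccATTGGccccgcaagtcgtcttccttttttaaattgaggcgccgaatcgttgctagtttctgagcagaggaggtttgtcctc
Kif15: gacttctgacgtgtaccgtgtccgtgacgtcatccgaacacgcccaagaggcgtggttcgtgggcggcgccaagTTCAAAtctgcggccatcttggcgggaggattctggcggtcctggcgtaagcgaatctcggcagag
Kif1c: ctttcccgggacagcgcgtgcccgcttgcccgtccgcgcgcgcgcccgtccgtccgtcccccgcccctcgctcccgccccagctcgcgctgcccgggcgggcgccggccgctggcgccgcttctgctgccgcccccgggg

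Kif4a, Kif22 and Kifc1 each held a CCAAT box upstream of CHR letters within this window. In Kif4a the CHR letters run across the gene start itself, from base -3 to base 3, and the nearest CCAAT box lies at bases -27 to -23. In Kif22 the CHR letters lie at bases -16 to -11, and in Kifc1 at bases -22 to -17. Kif20b carried 3 copies of the CHR letters, of which 2 stand directly behind one another at the gene start, and its CCAAT box (bases -155 to -151) lies outside the window printed. Kif11 held a CCAAT box and no CHR letters, whereas Kif15 held CHR letters and no CCAAT box. No such letters stand in the Kif1c window.

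RefSeq promoters (250 bases before the start and 50 from it) were found for 29 of the 39 kinesins. Among the mitotic kinesins, 11 of 13 had one, and of these 6 held CHR letters, 7 held a CCAAT box, 5 held both and 3 (Kif18a, Kif18b and Kif2c) held neither. The 11 transport kinesins with a promoter held no CHR letters, and 3 of them (Kif1b, Kif3b and Kif5b) held a CCAAT box. Of all 33465 promoters of this length, 18.3% held CHR letters, 37.5% a CCAAT box and 7.41% both. For the first promoter of the 12200 tested genes that have one, the shares were 12.5%, 37.4% and 5.07%. Such a match is a description of letters in this window and shows no binding, and its absence says only that the letters are not in the window.

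**Figure D1:**
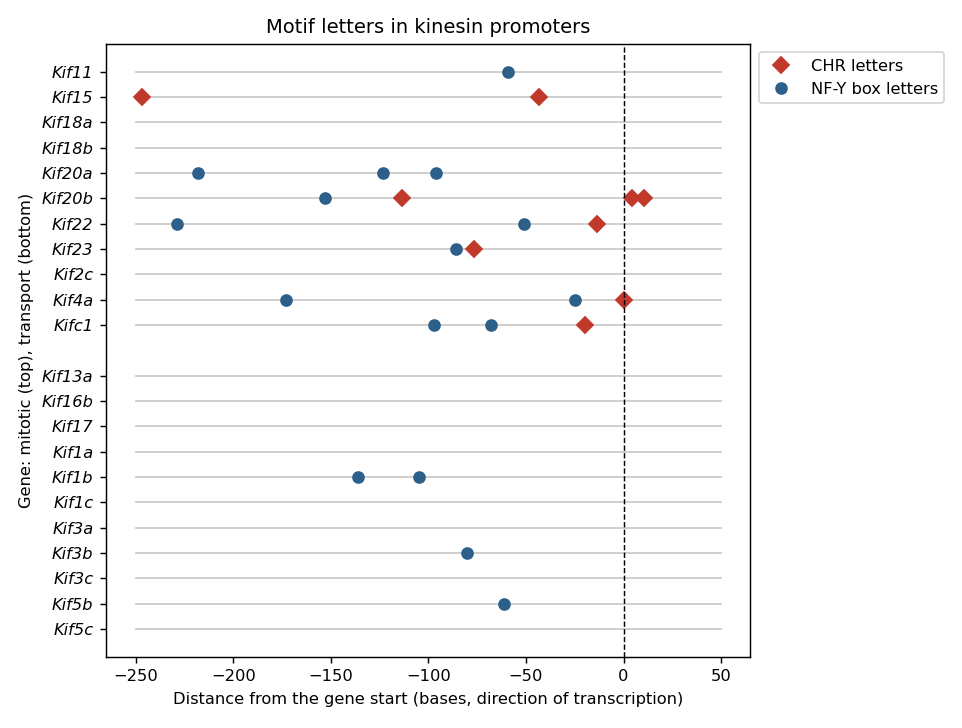
Positions of the CHR letters (diamonds) and of the CCAAT box, the site of NF-Y (circles), on either strand of the RefSeq promoters of 11 mitotic kinesins (upper rows) and 11 transport kinesins (lower rows). The x axis gives the distance from the gene start in bases. Diamonds appear in 6 rows of the upper group and in none of the lower group.

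Mitotic kinesins were more highly expressed in the banded veins. Of the 12 that were tested, 10 rose and 0 fell, and the other two, Kif14 and Kif15, did not pass the test. Across all 15150 genes tested with limma (log2(FPKM + 0.5), adjusted p under 0.05), 17.2% were called higher and 14.3% lower in BPVB. The study's threshold for a differentially expressed gene (DEG; absolute log2 fold change above 1) was used there with DESeq2 and is applied here to the limma fit, an unlike measure. In that fit, 7 of the 12 met it, as did 2.24% of all tested genes in the higher direction and 1.03% in the lower direction. That count depends on the pseudocount and the scaling. It was 3 with a pseudocount of 1, 9 with 0.1 or with TPM scaling, 5 with quantile normalization and 11 in limma-voom on recovered fragments. The shares of all tested genes stated above belong to the main fit, and none are given for these alternatives. The median log2 fold change of the 12 was 1.08, beside 0.02 for all tested genes. Their summed FPKM was 35.3, 33.7 and 32.8 in BPVB against 12.6, 13.1 and 12 in sham, a 2.7-fold difference of the means.

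Of the kinesins of the midzone and of cytokinesis, Kif20a, Kif23 and Kif20b rose and Kif14 did not pass the test. Kif20a (MKLP2), which carries the chromosomal passenger complex to the midzone, had FPKM of 7.12, 6.6 and 7.88 in BPVB and 1.51, 2.64 and 1.98 in sham. The lowest BPVB library was thus well above the highest sham library, and the log2 fold change of 1.62 ± 0.16 (SE, limma adjusted p = 8.55e-05) was the largest rise among the 35 kinesins tested on this scale. On recovered fragments, the limma-voom log2 fold change of Kif4a (1.97) was above that of Kif20a (1.86). Kif23 (MKLP1), the motor of the centralspindlin complex, was measured at 4.73, 5.53 and 4.54 FPKM in BPVB and at 1.82, 1.95 and 1.77 FPKM in sham. The sham libraries of Kif23 lay close together, and its log2 fold change was 1.21 ± 0.11 (limma adjusted p = 4.60e-05). Kif20b, an M-phase phosphoprotein that acts late in cytokinesis, reached 1.83, 1.42 and 1.5 FPKM in BPVB against 0.50, 0.53 and 0.362 FPKM in sham. Its level was well below that of Kif20a in both groups, and its log2 fold change was 1.11 ± 0.14 (limma adjusted p = 0.000391). Kif14, which works with citron kinase at the midbody, was the lowest of the tested mitotic kinesins, at 0.465, 0.374 and 0.576 FPKM in BPVB and 0.211, 0.333 and 0.0819 FPKM in sham. The 3 sham values of Kif14 spread widely, and its log2 fold change of 0.47 ± 0.17 did not pass the test (limma adjusted p = 0.0732). On recovered fragments, which need no pseudocount of 0.5 FPKM, its log2 fold change was 1.38 (limma-voom adjusted p = 0.00752), and without the second sham library it was 0.59 (limma adjusted p = 0.0475).

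Among the motors that act on the chromosome arms, Kif22 (Kid), which binds DNA and pushes chromosomes away from the poles, had FPKM of 5.51, 5.66 and 6.7 in BPVB and 2.23, 1.81 and 2.35 in sham. The 3 banded rats were higher than the 3 sham rats, with a log2 fold change of 1.3 ± 0.12 (limma adjusted p = 5.81e-05). Kif4a, a chromokinesin that shapes chromosomes and limits the length of midzone microtubules, gave 2.37, 2.23 and 1.25 FPKM in BPVB and 0.604, 0.548 and 0.311 FPKM in sham. The third BPVB library was the lowest of its group, yet above every sham library, and Kif4a had the largest ratio of group means (4.0-fold) among the mitotic kinesins called, with a log2 fold change of 1.29 ± 0.21 (limma adjusted p = 0.00181). The gene listed as Kif4b had 4 fragments in 1 sham library and 0 elsewhere. How reads that match more than 1 gene were assigned is not given in the sources used here, so the split between Kif4a and Kif4b is uncertain.

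Among the kinesins that set the bipolar spindle, Kif11 and Kifc1 rose and Kif15 did not pass the test. Kif11 (Eg5), which pushes the spindle poles apart, was measured at 3.2, 3.89 and 2.86 FPKM in BPVB and 1.23, 1.48 and 1.2 FPKM in sham, with a log2 fold change of 1.08 ± 0.13 (limma adjusted p = 0.000357). Kif15, which can take over from Kif11 in keeping the poles apart, had 1.18, 0.959 and 0.958 FPKM in BPVB and 0.884, 0.948 and 0.918 FPKM in sham. Its lowest BPVB value and highest sham value nearly touched, and its log2 fold change of 0.11 ± 0.13 did not pass the test (limma adjusted p = 0.545). Within each library, the difference in log2(FPKM + 0.5) between Kif11 and Kif15 was 1.14, 1.59 and 1.2 in BPVB and 0.32, 0.45 and 0.26 in sham. It was thus larger by 0.97 in BPVB, with no overlap, at an exact permutation p of 0.1 (two-sided, adjusted 0.25 over 5 such pairs), the smallest that 3 against 3 libraries can give. On the same scale, the difference between Kif20a and Kif20b also did not overlap between the groups. It was larger by 0.51 in BPVB, at the same exact permutation p of 0.1 (adjusted 0.25). However, the sham values of Kif20b (0.50, 0.53 and 0.362 FPKM) are about as large as the added 0.5 FPKM. Without that 0.5 FPKM, the ratios of Kif20a to Kif20b overlapped between the groups, so this separation depends on the pseudocount. For the other 3 pairs (Kif18a and Kif18b, Kif5b and Kif5a, Kif3b and Kif3c), the difference in log2(FPKM + 0.5) differed between the groups by -0.41 to 0.62 (exact permutation p of 0.2 to 0.3). Kifc1 (HSET), the minus-end motor that focuses the poles, reached 3.19, 2.65 and 2.8 FPKM in BPVB and 1.43, 1.3 and 1.12 FPKM in sham, with a log2 fold change of 0.92 ± 0.12 (limma adjusted p = 0.000511).

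Kif18a, Kif18b and Kif2c, which shorten spindle microtubules or limit their growth, also rose. Kif18a, which damps chromosome oscillation at the metaphase plate, had FPKM of 1.61, 1.05 and 1.06 in BPVB and 0.717, 0.419 and 0.358 in sham (log2 fold change 0.80 ± 0.19, limma adjusted p = 0.0106). Its relative Kif18b, which controls astral microtubules, was at 2.53, 1.94 and 1.48 FPKM in BPVB and 0.637, 0.61 and 0.732 FPKM in sham (log2 fold change 1.08 ± 0.17, limma adjusted p = 0.00126). In both, the first BPVB library was the highest and the groups did not overlap. Kif2c (MCAK), which depolymerises microtubules at the centromere to correct faulty attachment, gave 1.62, 1.39 and 1.22 FPKM in BPVB and 0.856, 0.513 and 0.75 FPKM in sham, with the smallest log2 fold change of the mitotic kinesins called, 0.67 ± 0.15 (limma adjusted p = 0.0102).

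For all 12 mitotic kinesins tested, the lowest BPVB library was above the highest sham library. Groups without overlap, in either direction, were found for 45.6% of all tested genes. The 10 that were called differed by 2.0-fold (Kif2c) to 4.0-fold (Kif4a) in mean FPKM, and their called status was the same without any single library.

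**Figure D2:**
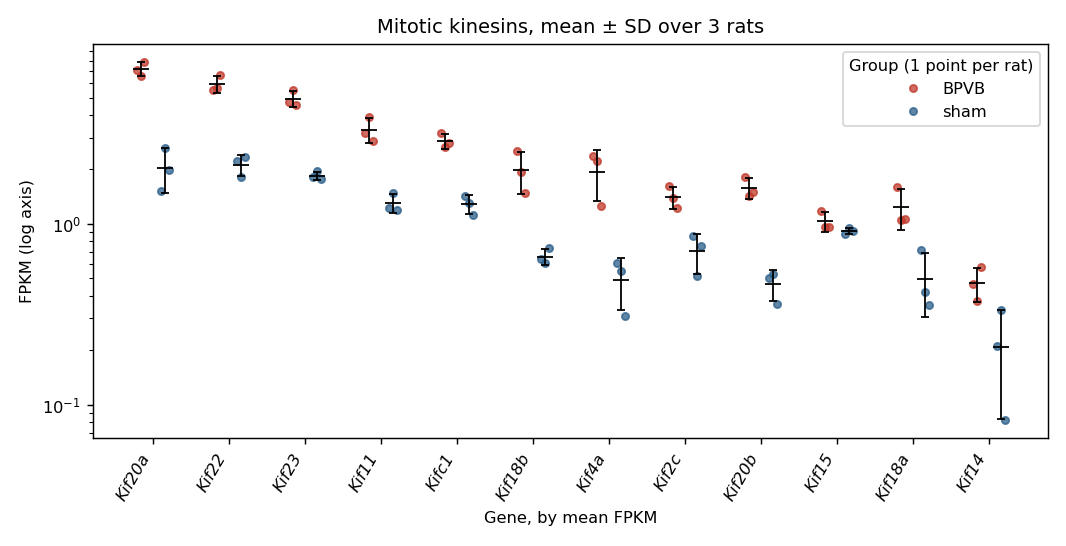
FPKM (y axis, log scale) of the 12 tested mitotic kinesins (x axis, ordered by mean FPKM) in the 3 BPVB and 3 sham libraries. Each point is 1 rat, and the horizontal marks and bars are the mean ± SD. The points of the 2 groups are apart for Kif20a (BPVB 7.2 ± 0.641, sham 2.05 ± 0.568) and nearly meet for Kif15 (BPVB 1.03 ± 0.13, sham 0.917 ± 0.0323).

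Transport kinesins made up most of the kinesin FPKM, and most of them did not pass the test. Of the 14 tested, 2 rose (Kif1c and Kif5b), 1 fell (Kif1a) and 11 did not pass the test (17.2% of all tested genes were called higher and 14.3% lower). Their median log2 fold change was -0.02. Without the first BPVB library or the third sham library, 2 fell. Their summed FPKM was 241, 236 and 236 in BPVB and 224, 223 and 224 in sham, 1.06-fold by the means. As a share of all kinesin FPKM, the transport kinesins averaged 81.6% in BPVB and 87.2% in sham, and the mitotic kinesins 11.7% and 4.89%.

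Kif1c and Kif5b, the 2 kinesins of highest level, accounted for 35.2% and 28.8% of the mean kinesin FPKM. Kif1c, which carries dense-core vesicles, integrins and mRNAs, had FPKM of 102, 98 and 103 in BPVB and 91.3, 92.6 and 92.6 in sham, with a log2 fold change of 0.13 ± 0.03 (limma adjusted p = 0.0124). Kif5b, the ubiquitous heavy chain of conventional kinesin, was at 83.2, 84.2 and 81.8 FPKM in BPVB and 75.6, 71.8 and 77 FPKM in sham, with a log2 fold change of 0.15 ± 0.04 (limma adjusted p = 0.0119). Both are small changes (1.09-fold and 1.11-fold by the means), seen without overlap as the libraries of each group lay close together. The next in level did not pass the test. Kif13a, a carrier of recycling endosomes, was at 15.5, 16.9 and 14.6 FPKM in BPVB and 15.9, 17.2 and 16 FPKM in sham (limma adjusted p = 0.513), and Kif1b, a carrier of mitochondria and synaptic vesicle precursors, at 12.9, 12 and 12.2 and 13, 13.3 and 12.4 FPKM (limma adjusted p = 0.482). For both, the groups overlapped.

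Kif1a, the axonal motor of synaptic vesicle precursors, was lower in BPVB and met the DEG threshold. Its FPKM was 0.628, 0.304 and 0.548 in BPVB and 1.75, 1.35 and 1.76 in sham, and its log2 fold change was -1.1 ± 0.17 (limma adjusted p = 0.00112). Every sham library was more than double the highest BPVB library. With a pseudocount of 1 its log2 fold change was -0.81 and without the second BPVB library -0.96, in both cases short of the DEG threshold. With a pseudocount of 0.1 and on recovered fragments, 2 kinesins met it in this direction, Kif1a and Kif19. The neuronal forms of conventional kinesin, Kif5a and Kif5c, had lower mean FPKM in BPVB without passing the test. For Kif5a the values were 1.19, 0.619 and 0.505 FPKM in BPVB and 1.64, 1.16 and 0.908 FPKM in sham, with a log2 fold change of -0.46 ± 0.23 (limma adjusted p = 0.156). The first BPVB library was the highest of its group, and without it the log2 fold change was -0.69 (limma adjusted p = 0.0381). For Kif5c the log2 fold change was -0.26 ± 0.20 (limma adjusted p = 0.374). Neuronal markers moved in the same direction as Kif1a. Of 9 (Nefl, Tubb3, Snap25, Nefm, Gap43, Uchl1, Prph, Elavl4 and Stmn2), 0 rose and 8 fell (14.3% of all tested genes fell), and their summed FPKM was 23 to 26.8 in BPVB and 50.7 to 53.3 in sham. Of these 9, Elavl4 was at 0 in 1 BPVB library, and the others were above 0 in every library. Elavl4 (mean 0.0364 FPKM in BPVB and 0.267 in sham) reached the mean FPKM of 0.1 required for testing only through the sham group. Its fall is thus partly set by that filter and is counted as a description. Schwann cell markers, of which 5 of 6 fell, summed to 45.4 to 48.2 FPKM in BPVB and 115 to 122 FPKM in sham. The part of these cells in the Kif1a difference was not tested.

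The heterotrimeric kinesin-2 motor, which drives intraflagellar transport and carries other cargo, was measured through Kif3a (3.03 ± 0.172 FPKM in BPVB and 2.97 ± 0.216 FPKM in sham, SD, n = 3), Kif3b (4.64 ± 0.258 and 4.87 ± 0.347 FPKM) and Kif3c (2.68 ± 0.305 and 2.03 ± 0.504 FPKM). None of them passed the test, with limma adjusted p-values of 0.893, 0.646 and 0.126. The second sham library of Kif3c (2.58 FPKM) lay among the BPVB values, and without it the log2 fold change of Kif3c was 0.50 instead of 0.35 (limma adjusted p = 0.0334). Kifc3, a minus-end motor of epithelial junctions and the Golgi, had FPKM of 4.59, 4.43 and 5.02 in BPVB and 5.67, 6.56 and 5.06 in sham. Its log2 fold change was -0.27 ± 0.11 (limma adjusted p = 0.0868), and without the third sham library it was -0.35 (limma adjusted p = 0.0447). On recovered fragments it was -0.29 (limma-voom adjusted p = 0.0245). The remaining members, Kif13b, Kif16b and Kifc2, had log2 fold changes between 0.04 and 0.09. Kif17, the motor of dendrites and of some cilia, was below the level required for testing, with 13 fragments in all libraries together. Across the 11 transport kinesins without a call, log2 fold changes ran from -0.46 (Kif5a) to 0.35 (Kif3c).

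**Figure D3:**
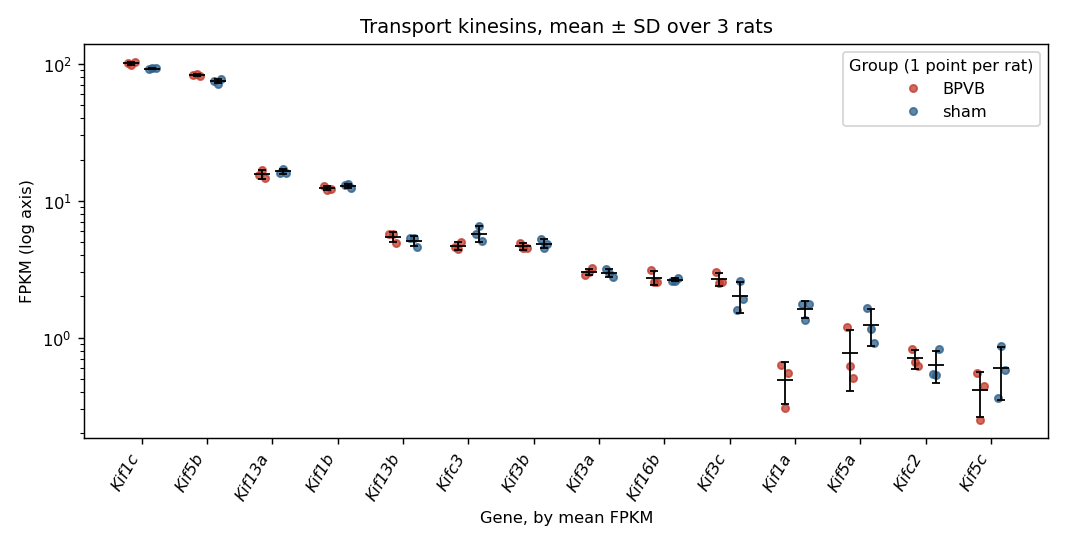
FPKM (y axis, log scale) of the 14 tested transport kinesins (x axis, ordered by mean FPKM) in the 3 BPVB and 3 sham libraries. Each point is 1 rat, and the horizontal marks and bars are the mean ± SD. The groups lie beside one another for most genes, whereas for Kif1a the BPVB points (0.493 ± 0.169) lie below the sham points (1.62 ± 0.238).

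Kif7 was the only ciliary kinesin with a mean FPKM above 1. Of 4 tested, Kif7 rose and Kif19 fell (all tested genes, 17.2% and 14.3%), and Kif9 and Kif24 did not pass the test, with log2 fold changes of -0.38 and -0.12 (limma adjusted p = 0.235 and 0.568). Kif19, Kif9 and Kif24 reached the mean FPKM of 0.1 required for testing only through the sham group, so their direction is partly set by that filter and their counts are given as a description. Kif9 was at 0, 0.116 and 0.147 FPKM in BPVB and 0.0847, 0.53 and 0.225 FPKM in sham, and Kif24 at 0.0575, 0.0942 and 0.0929 FPKM in BPVB and 0.129, 0.124 and 0.135 FPKM in sham. Their values overlapped for Kif9 and not for Kif24, and the log2 fold changes on recovered fragments were -2.16 and -0.68 (limma-voom adjusted p = 0.0885 and 0.448). Kif7, which organises the tip of the primary cilium and regulates Hedgehog signalling, had FPKM of 3.15, 3.49 and 2.68 in BPVB and 2.2, 1.69 and 1.96 in sham, with a log2 fold change of 0.56 ± 0.13 (limma adjusted p = 0.0107). The groups did not overlap. Kif19, a depolymerase that limits the length of motile cilia, was at 0.0103, 0 and 0.0554 FPKM in BPVB and 0.346, 0.223 and 0.196 FPKM in sham, from 1, 0 and 6 fragments and 30, 19 and 17 fragments, respectively. As a member tested only because of its sham level, it had a log2 fold change of -0.53 ± 0.15 that passed the test (limma adjusted p = 0.0262), but not without the first or second BPVB library (limma adjusted p = 0.0642 and 0.0720) or the first or second sham library (limma adjusted p = 0.0864 and 0.0538). This fold change depends on the pseudocount. It was -1.55 with a pseudocount of 0.1 (limma adjusted p = 0.0181) and -3.85 on recovered fragments (limma-voom adjusted p = 0.00463). Kif6 had 0 fragments in BPVB and 9 in sham, 8 of which were from the first sham library, and the second sham library was also at 0. No fold is given, since it would rest on 1 library. Kif27 had 33 fragments in BPVB and 11 in sham with overlapping groups, and neither Kif6 nor Kif27 was tested. Apart from Tppp3, markers of motile ciliated epithelium were low in every library, with Foxj1 at 0 in 5 of 6 libraries and 5 of 10 markers too low to test, and of the others Tppp3 alone fell. Their summed FPKM, most of it Tppp3, was 81.6 to 91.2 in BPVB and 133 to 141 in sham.

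The remaining 5 kinesins regulate microtubule dynamics or signalling. Kif26a, which lacks motor activity and restrains growth factor signalling, was the fifth highest kinesin, at 6.76, 6.8 and 7.17 FPKM in BPVB and 8.59, 9.01 and 7.93 FPKM in sham. It fell, with a log2 fold change of -0.28 ± 0.07 (limma adjusted p = 0.0194), and did not pass without the first or second BPVB library (limma adjusted p = 0.0566 and 0.0552) or the first or second sham library (limma adjusted p = 0.0576 and 0.0675). Kif21a, which slows microtubule growth at the cell cortex, was at 0.643, 0.838 and 0.976 FPKM in BPVB and 1.41, 1.98 and 1.18 FPKM in sham. The groups of Kif21a did not overlap, and the log2 fold change was -0.61 ± 0.18 (limma adjusted p = 0.0284), with adjusted p-values of 0.0886, 0.0614, 0.0599 and 0.0876 in limma without the first or second library of BPVB or of sham, in this order. Its paralogue Kif21b rose by 0.48 ± 0.14 on the log2 scale (limma adjusted p = 0.0331), from 0.258 ± 0.0809 to 0.553 ± 0.0586 FPKM (SD, n = 3), and the call was lost without the first or second BPVB library (limma adjusted p = 0.0804 and 0.0925) or the first or the third sham library (limma adjusted p = 0.0981 and 0.0897), and with quantile normalization (limma adjusted p = 0.0651). Kif2a, a depolymerase of resting and dividing cells, and Kif26b did not pass the test, with log2 fold changes of 0.09 and 0.20.

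**Figure D4:**
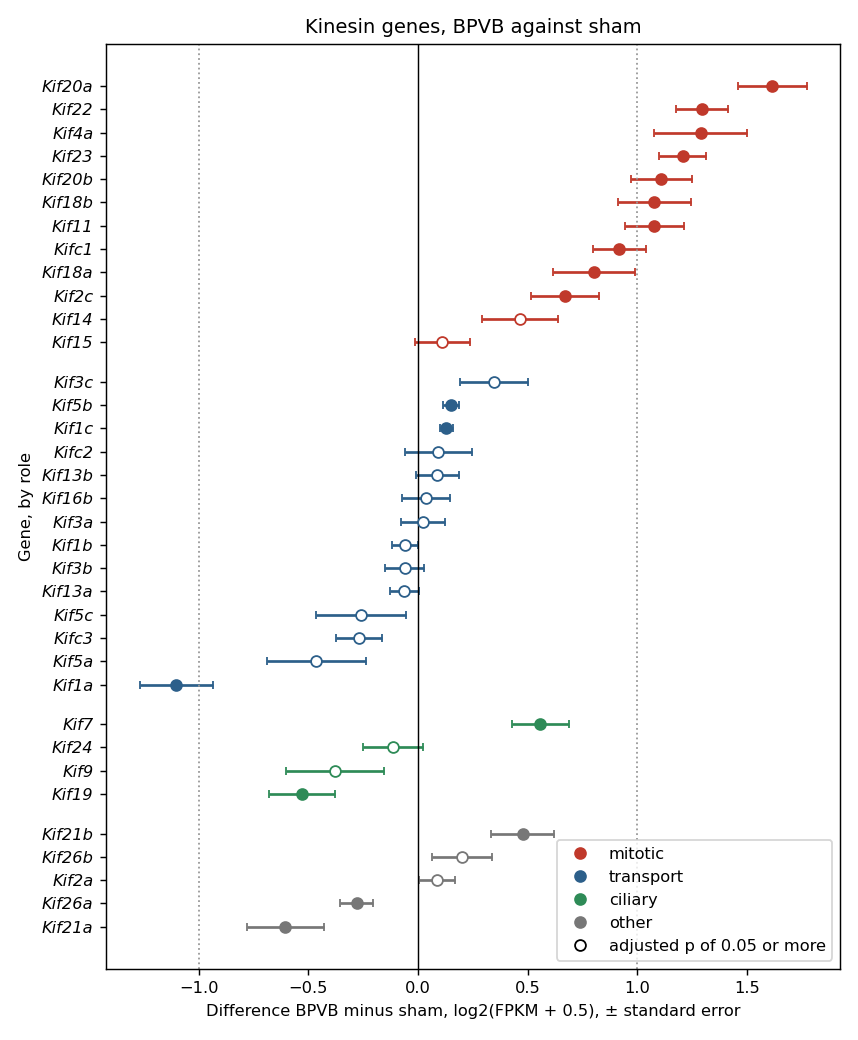
Difference between BPVB and sham in log2(FPKM + 0.5) for the 35 tested kinesins (x axis, with standard errors from limma), grouped by role along the y axis. Filled points have an adjusted p under 0.05, and dotted lines mark a 2-fold change. Mitotic kinesins run from 0.11 to 1.62, and transport kinesins from -1.1 to 0.35.

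Over the family as a whole, 14 of the 35 tested kinesins rose, 4 fell and 17 did not pass the test. For comparison, 17.2% of all tested genes rose and 14.3% fell, and the number of kinesins that fell was not above the latter share. Of the 14 that rose, 10 were mitotic, and of the 4 that fell, none was and 1 (Kif19) was tested only because of its sham level. With 1 library left out, the number that fell was 2 (without the first BPVB library), 1 (without the second BPVB, the first sham or the second sham library), 4 (without the third BPVB library) or 5 (without the third sham library). The median log2 fold change of the 35 was 0.11.

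The genes that work with each class were read from lists of named partners. Of 22 genes listed as partners of the mitotic kinesins, 21 rose and 0 fell, with a median log2 fold change of 1.16 (17.2% of all tested genes rose and 14.3% fell). The list holds genes of the kinetochore, the midzone, the chromosomal passenger complex and the mitotic kinases, and also general proliferation genes such as Top2a and Mki67. The largest changes were in Top2a, which untangles chromosomes (8.65, 8.2 and 9.04 FPKM in BPVB and 3.04, 2.46 and 2.93 FPKM in sham, log2 fold change 1.47, limma adjusted p = 7.07e-06), and in Nuf2 of the outer kinetochore (log2 fold change 1.41, limma adjusted p = 0.000558). Prc1, the microtubule bundler that Kif4a and Kif20a need at the midzone, had a log2 fold change of 1.35. Racgap1, the partner of Kif23 in centralspindlin, had 1.26, and Tpx2, which loads Kif15 and Kif11 on the spindle, had 1.18. The kinetochore kinesin Cenpe, which the naming rule leaves out, had 0.84 (limma adjusted p = 0.00428). Kntc1 alone did not pass the test (0.39, limma adjusted p = 0.0714).

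DNA replication genes, which are needed one phase earlier in the cell cycle, were counted beside them. Of 20, 3 rose and 0 fell, with a median log2 fold change of -0.08. Those that rose were Rrm2, the small subunit of ribonucleotide reductase (1.18, limma adjusted p = 0.00133), Tk1, a thymidine kinase (0.66, limma adjusted p = 0.00187), and Mcm7 of the replicative helicase (0.32, limma adjusted p = 0.0169). The share of genes called in the higher direction among all tested genes was 17.2%.

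Light chains, adaptors and binding proteins of the transport kinesins were mostly without a call. Of 19 tested, 1 rose and 3 fell, with a median of -0.05. Plekhm2 (SKIP), which links lysosomes to kinesin-1, had FPKM of 27.4, 26.8 and 27.7 in BPVB and 17.7, 17.8 and 17.2 in sham and a log2 fold change of 0.62 ± 0.04 (limma adjusted p = 1.16e-05). The scaffold Mapk8ip2 (-0.53), the axonal adaptor Fez1 (-0.40) and the mitochondrial GTPase Rhot2 (-0.27) fell, with limma adjusted p-values of 0.0147, 0.0402 and 0.031. Of 24 genes of cytoplasmic dynein and dynactin, 5 rose and 6 fell (all tested genes, 17.2% and 14.3%), and the median was 0.02. Dync1li1 (0.37) and Dctn1 (0.31) had the largest rises, and the adaptor Bicd1 (-0.56) and Dctn3 (-0.28) the largest falls. Of 20 genes of intraflagellar transport, 2 rose (Ift80, 0.42, and Ift46, 0.36) and 2 fell (Ift172, -0.32, and Ift81, -0.31), with a median of 0.01.

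**Figure D5:**
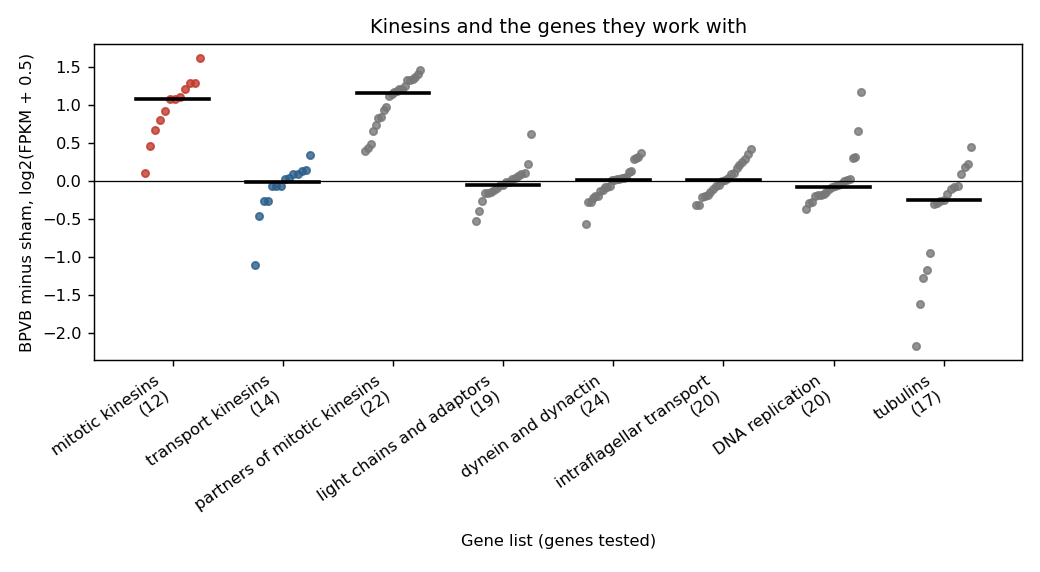
Difference between BPVB and sham in log2(FPKM + 0.5) (y axis) for each tested gene of the mitotic kinesins, the transport kinesins and 6 lists of genes that work with them (x axis, number tested in brackets). Black bars are medians, which are 1.08 for the mitotic kinesins and 1.16 for their partners, and run from -0.24 (tubulins) to 0.02 (dynein and dynactin) for the others.

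Markers of alveolar type 2 cells and of macrophages moved in the same direction as the mitotic kinesins, and the other marker lists did not. The counts of each list stand beside 17.2% of all tested genes called higher and 14.3% called lower. Of 8 alveolar type 2 markers, 7 rose and 0 fell, with a summed FPKM of 548 to 595 in BPVB and 58 to 60.8 in sham, and Sftpc, the defining marker, was above 0 in every library (367, 409 and 393 FPKM in BPVB and 35, 37.2 and 37.6 FPKM in sham). Of 7 macrophage markers, 6 rose and 0 fell, with a summed FPKM of 655 to 677 in BPVB and 212 to 217 in sham. Most of that sum was Lyz2 (mean 592 FPKM in BPVB and 163 in sham, log2 fold change 1.85). The median log2 fold change of the 7 was 0.64, and Cd163 (-0.07) did not pass the test. Vascular smooth muscle markers (0 of 6 rose, 4 fell) and endothelial markers (0 of 6 rose, 4 fell) had medians of -0.16 and -0.15. Of 6 atrial markers, 2 rose and 4 fell, and of 6 erythroid markers, 0 rose and 2 fell. Which of these cells held the mitotic kinesin mRNA, and the part of a change in the cells sampled, was not tested.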

How the data were processed

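The authors deposited a table of FPKM for 6 libraries, made with fastp (trimming), HISAT (mapping) and HTSeq-count (reads per gene). The submitters' processing notes name HISAT2 2.0.5, StringTie 1.3.3b, featureCounts 1.5.0-p3 and DESeq2 1.20.0. The library kit is named differently in the paper (VAHTS Universal V6) and the labels (NEBNext Ultra). Genome build, annotation and strand setting are not given in the sources used here. DESeq2 was not run here.

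Expression was compared with limma 3.58.1 in R 4.3.3 (lmFit, eBayes with trend, two-sided, Benjamini-Hochberg) on log2(FPKM + 0.5) for the 15150 genes whose FPKM averaged 0.1 or more. A fold change on this scale understates the change of low genes. Fragments were recovered from the whole-number steps of the FPKM of all genes but 1, and used for depth and for limma-voom. The fit and the recovery of fragments were tested on simulated data. Python 3.11.15 was used for the other steps. Values are given per library for every tested mitotic kinesin, every other kinesin called with an absolute log2 fold change above 0.5 and the 5 of highest level. Kif5a, Kif3c, Kifc3, Kif21b, Prc1, Racgap1, Tpx2 and Cenpe were named after their values were seen. Members, lists and motifs were chosen with earlier results of these data known. One gene of the planned neuronal marker list is not reported here. Protein sequences and the single-cell data were not analysed here. The number of per-sample value columns not used was 0.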

Additional observations from a re-analysis of the deposited data

How the results depend on the processing

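The number of mitotic kinesins called higher was between 9 (with a mean FPKM of at least 1, where fewer members were tested) and 11 in 16 refits, and that of mitotic kinesins called lower was 0 in each. Requiring an absolute log2 fold change above 1 left 7 kinesins called higher, 1 called lower and 0 transport kinesins called higher. By that rule, between 3 (pseudocount 1) and 11 (limma-voom) mitotic kinesins passed. The share of all tested genes that passed it is given for the main fit only. Without 1 library at a time, between 1 and 5 kinesins were called lower, and between 1 and 2 transport kinesins. Transport kinesins called lower numbered 2 in limma-voom on fragments (Kif1a and Kifc3). The median log2 fold change of the mitotic kinesins was 0.82 with a pseudocount of 1, 1.32 with 0.1, 1.27 with TPM (which about doubles every value and so weakens the pseudocount), 0.98 with quantile normalization, 1.39 in limma-voom and 0.98 to 1.15 without 1 library. Signs turned only for members without a call: Kif16b (-0.0382 with quantile normalization, -0.0463 to 0.0826 when 1 library was left out), Kif3a (-0.00023 with median of ratios scaling, -0.0511 with quantile normalization, -0.022 to 0.0675 when 1 library was left out) and Kifc2 (-0.0103 with quantile normalization). Of 550 values, 517 kept direction and call. For the rest, the cause was not tested.

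Libraries with the same replicate number deviated together only weakly, with correlations of 0.0136 to 0.0255. These were above the correlations between unlike numbers, which ran from -0.0216 to 0.00601. With the replicate block, 2 transport kinesins were called lower (Kif1a, and Kif5a with a limma adjusted p of 0.0429), and Kif19 and Kif21b had limma adjusted p-values of 0.0513 and 0.0525. Depth limits the members under 100 fragments, among them Kif19, Kif9 and the 4 that were not tested.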

Other observations

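The tubulin list holds the alpha and beta subunits of the track on which kinesins walk, and also gamma, delta and epsilon tubulins. Its genes, among them the gamma tubulin Tubg1 (log2 fold change -0.30, limma adjusted p = 0.00312), fell more often than they rose. Of 17 tested, 2 rose and 9 fell, with a median log2 fold change of -0.24, and the background was 17.2% of all tested genes called higher and 14.3% lower. Tubb3, the neuronal beta tubulin, had FPKM of 1.51, 0.783 and 1.41 in BPVB and 6.37, 7.57 and 7.64 in sham (log2 fold change -2.17 ± 0.17, limma adjusted p = 2.51e-05). It is also 1 of the 9 neuronal markers. Tuba8 was at 1.69, 1.69 and 2.96 FPKM in BPVB and 7.82, 6.87 and 7.34 FPKM in sham (log2 fold change -1.62, limma adjusted p = 0.000146). Tuba4a, an alpha tubulin encoded without a final tyrosine, was at 43.9, 44 and 43.1 FPKM in BPVB and 82.9, 86.1 and 85.1 FPKM in sham, which is a log2 fold change of -0.95 ± 0.03 (limma adjusted p = 1.86e-07). Tubb6 (0.45, limma adjusted p = 0.000366) and Tuba1c (0.22, limma adjusted p = 0.00979) were the 2 that rose. The most highly expressed beta tubulins, Tubb5 and Tubb4b, had log2 fold changes of -0.08 and -0.06 and did not pass the test. Tubulin genes share long stretches of sequence, and the way shared reads were counted is not given in the sources used here.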
